A study of Mus musculus with 64 samples.

Results

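The genes described here encode, in the nucleus, the subunits of the mitochondrial respiratory chain and of ATP synthase. They were taken by name as the protein-coding genes called Ndufa, Ndufb, Ndufc, Ndufs or Ndufv, Sdha to Sdhd, Uqcr, Cox4 to Cox8, or Atp5 in the authors' gene table, 96 of its 55381 genes. Of these, 7 are core subunits of complex I, 30 are its accessory subunits and 8 are its assembly factors, while 4 belong to complex II, 8 to complex III, 21 to complex IV and 18 to complex V. A filter on low counts was passed by 93 of the 96. The testis isoform Cox7b2 held 5 counts over all tumors, Cox8c held 6, and a second identifier of Atp5o, which spans several genes, held 0. Another 16 genes of other types matched the names, pseudogenes among them, and held 0.0801% as many counts as the 96. Cox5b-ps (368 counts) and Ndufb1-ps, protein-coding in the authors' table, were kept and tested, with complex IV and the accessory subunits of complex I. The GENCODE M21 annotation types Ndufb1-ps as a noncoding RNA.

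Total RNA of 8 mammary tumors from 4 female PyMT mice was sequenced, 2 tumors from 1 mouse per genotype. PyMT mice, written PyVT+ in the labels, carry a transgene for the middle T antigen of polyomavirus and form mammary tumors. Abi1 encodes a subunit of the actin-regulating WAVE complex. All 4 mice also carried at least 1 floxed Abi1 allele. The MMTV-driven Cre, bred from a line of mixed strain that the study calls mammary-specific, deletes such alleles in mammary epithelium. Whether other cells of these tumors kept their alleles was not tested. Mice with 1 floxed and 1 wild-type allele (fl/wt) were G144 without Cre, the heterozygous control, from which tumors 6 and 8 came, and G164 with Cre, the heterozygous KO, which gave tumors 3 and 6. Mice with floxed alleles only (fl/fl) were G184 without Cre, the homozygous control, sampled at tumors 6 and 9, and G174 with Cre, the homozygous KO, sampled at tumors 1 and 6. Ages are not in the labels, and by the study's pathology records G164 and G184 were older than G144 and G174. Since each genotype was 1 mouse, genotype, mouse and age cannot be told apart, and each p-value given here sets a difference against the spread of tumors within single mice. Counts in genes ran from 50346075 to 69264893 per tumor. Levels are given as CPM, the counts of a gene per 1e+06 counts of its library, after TMM scaling, which adjusts library sizes by a trimmed mean of ratios. Abi1 itself stood at 111 and 130.1 CPM in G144, 63.1 and 66.7 CPM in G164, 114 and 122 CPM in G184, and 8.93 and 6.47 CPM in G174, in the order of the labels. The epithelial markers were Epcam, Cdh1, Krt8, Krt18, Krt19, Cldn3, Cldn4 and Elf5. They summed to 4253 and 4617 CPM in G144, 3778 and 3996 in G164, 3810 and 4238 in G184, and 4187 and 4294 in G174.

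The respiratory chain sits in the inner mitochondrial membrane. Complex I takes electrons from NADH and complex II from succinate, both pass them to ubiquinone, complex III hands them to cytochrome c and complex IV to oxygen. Complexes I, III and IV pump protons, and complex V lets them flow back to make ATP. All complexes but II also hold subunits encoded by mitochondrial DNA, so the nuclear and mitochondrial genomes both supply the chain. The transcription factors NRF1, GABPA (an ETS factor) and YY1 are known to act at promoters of many of these genes.

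RefSeq promoter windows of GRCm38.p6, from 250 bases before to 50 after a gene's start, were found for 76 of the 95 symbols, and 32 of these held at least 1 of the cores searched on both strands. The NRF1 core GCGCATGC lay in 12 of 81 windows of respiratory chain genes (14.8%) and in 2.71% of all 32817 windows of that length. The ETS core CCGGAAG lay in 19 (23.5%) against 8.86% of all windows, and the YY1 core AAGATGGCG in 8 (9.88%) against 1.4%. No matches of different cores overlapped in these windows. The stretches below show such matches, in capitals, in promoters of genes whose values follow, each read 5′ to 3′ on the strand of its gene and lying between positions -77 and -3 from the RefSeq start. The stretches of Ndufa11, Sdhb and Atp5k show the NRF1 core (in Sdhb on the opposite strand), and those of Ndufb7, Atp5j and Uqcr11 the ETS core. Outside the stretches, the windows of Sdhb and Atp5k also hold the ETS core, that of Uqcr11 the NRF1 core and that of Atp5j the YY1 core.
Ndufa11, chr17:56717691-56717720, plus strand: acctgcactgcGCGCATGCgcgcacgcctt
Sdhb, chr4:140961206-140961235, plus strand: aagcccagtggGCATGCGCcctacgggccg
Atp5k, chr5:108434431-108434460, minus strand: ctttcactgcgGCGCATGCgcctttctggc
Ndufb7, chr8:83566727-83566755, plus strand: gcctagatgacCCGGAAGacactgaaggg
Atp5j, chr16:84835020-84835048, minus strand: agctgagggacCCGGAAGcacttaccctc
Uqcr11, chr10:80406870-80406898, minus strand: ttctctcctccCCGGAAGtagatgtcaat

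Together the 96 genes gave 9834 and 9766 CPM in the tumors of G144, 7054 and 7426 in G164, 7033 and 6792 in G184, and 8068 and 8685 in G174. The tumors of G144 were thus highest, those of G174 next, and those of G164 and G184 lowest, with both tumors of G184 just under both of G164. The means were 9800 ± 47.5, 7240 ± 263, 6912 ± 169.9 and 8376 ± 436 CPM (SD, n = 2 tumors) in the same order, so that G164 and G184 differed by less than the sum of their SDs. Complex V made up the largest sum, with 3873 and 3744 CPM in G144, 2695 and 2869 in G164, 2657 and 2552 in G184, and 3198 and 3402 in G174. Complex II made up 595 and 578 CPM in G144, 457 and 509 in G164, 461 and 497 in G184, and 512 and 552 in G174. The mean of G164 was 0.824 times that of G144 in complex II, against 0.739 times for all 96 genes. Gene by gene, G144 had the highest mean in 87 of the 93 genes tested and G174 the second highest in 75. The full order G144, G174, G164, G184 was found in 66 genes.

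The single genes spanned a wide range of levels. Per kilobase of merged exons, the mean over tumors was 263 CPM for Atp5a1 and 191 for Atp5b, the alpha and beta subunits of the catalytic head of complex V. It was 216 for Cox8a, 210.1 for Cox6b1 and 181 for Cox4i1 of complex IV, 135 for Uqcr10 of complex III and 88.8 for Ndufc2 of complex I. In complex II, Sdhd (70.5) and Sdha (65.8 CPM per kilobase), a membrane anchor and the flavoprotein, were at like levels. The assembly factors of complex I reached at most 16.5, in Ndufaf8. Merged exons can be far longer than the main transcript, as in Ndufb2 and Atp5l with 5628 and 6443 bases, and such genes appear lower per kilobase.

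**Figure D1:**
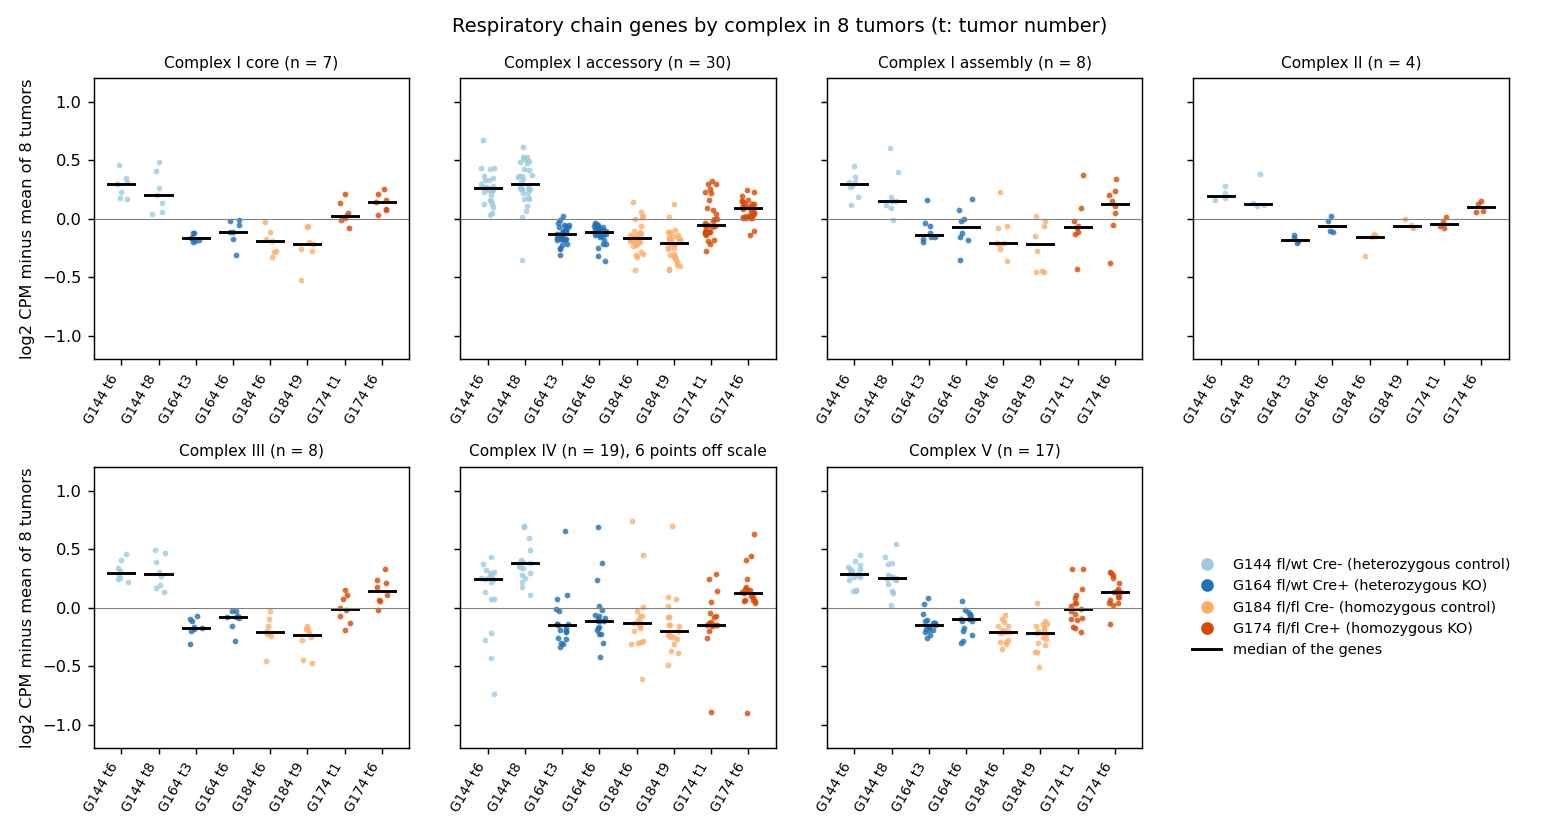
Each point is 1 gene in 1 tumor, as its log2 CPM minus its mean over the 8 tumors, with a panel for each complex and a black line at the median of its genes; 6 points of complex IV lie off the scale. In every panel the medians of both G144 tumors are highest, between 0.13 and 0.38, and those of G164 and G184 lie below 0.

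In the heterozygous comparison (G164 against G144), which asks what loss of 1 Abi1 allele in mammary epithelium goes with, 92 of the 93 respiratory chain genes tested had a log2 fold change below 0, and those past the threshold lay in the core and accessory subunits of complex I and in complexes III, IV and V. By the quasi-likelihood test of edgeR with Benjamini-Hochberg adjustment over all 22187 genes tested and a threshold of 0.05, 14 of the 93 were lower, against 1.29% of all genes. None was higher, against 2.72% of all genes, and none was higher at an unadjusted p under 0.05 or by DESeq2. The median log2 fold change of the 93 was -0.39 (0.762-fold), against 0.02 over all genes tested. Both G164 tumors lay below both G144 tumors in 86 of the 93, where 28.8% of all genes did so. Medians by complex ran from -0.27 in the assembly factors of complex I and -0.30 in complex II to -0.42 in the accessory subunits of complex I, and 1 gene, Cox6b2, was above 0 at 0.03. The 14 calls rest on all 4 tumors: leaving out any 1 of them left 0, where 0.0173% to 0.0304% of all genes were called lower. DESeq2 called 54 lower, against 7.65% of all genes.

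The largest fall was in Ndufv2 (chr17:66078638-66101559), an iron-sulfur core subunit in the NADH-oxidising part of complex I. Its level was 119 and 121 CPM in G144 against 77.4 and 69.7 CPM in G164, a log2 fold change of -0.71 ± 0.10 (SE; adjusted p = 0.0278, edgeR). The other 6 core subunits had log2 fold changes down to -0.49 and were not called by edgeR. Of all 7, 5 were lower at an unadjusted p under 0.05, and DESeq2 called 5 lower. Among accessory subunits of complex I, Ndufa11, Ndufa13, Ndufa7, Ndufv3, Ndufs6 and Ndufb10 fell, by 0.47 to 0.60 on the log2 scale. Ndufa11, whose promoter stretch is shown above, stood at 49.0 and 49.1 CPM in G144 and 34.2 and 30.5 CPM in G164. Ndufa13, also known as GRIM19, stood at 129.7 and 113 CPM in G144 and 80.4 and 84.6 CPM in G164. Both genes were picked by their calls, so it is no further support that in both the tumors of the mice did not overlap. No assembly factor passed the threshold in edgeR, where 3 of the 8 were lower at an unadjusted p under 0.05, and DESeq2 called 2, Ndufaf2 and Ndufaf7, lower. The most negative of these was Ndufaf2, a chaperone of late complex I assembly, with 15.4 and 18.3 CPM in G144 and 10.6 CPM in both tumors of G164 (-0.67 on the log2 scale, adjusted p = 0.0813, edgeR).

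In complex III, Uqcrq (chr11:53427922-53430831), a small subunit of the complex, fell by 0.68 ± 0.11 on the log2 scale (SE; adjusted p = 0.0287, edgeR), from 58.6 and 62.2 CPM in G144 to 35.7 and 39.6 CPM in G164. Each of the 8 complex III genes was lower in both G164 tumors than in both G144 tumors, against 28.8% of all genes. The same held for all genes of complexes II and V and for the core and assembly genes of complex I. In complex IV, Cox4i1, Ndufa4 and Cox7a2l fell. Cox4i1, the common isoform of subunit 4, stood at 372 and 321 CPM in G144 and 224 and 246 CPM in G164 (-0.56 on the log2 scale). Cox7a2l, which links complexes III and IV in supercomplexes, stood at 165 and 161 CPM in G144 and 118 and 115 CPM in G164 (-0.48). In complex V, Atp5pb and Atp5o, both of the peripheral stalk, and Atp5c1, the gamma subunit of the central stalk, fell by 0.52, 0.47 and 0.49 on the log2 scale. Atp5k, a small membrane subunit shown above, stood at 61.4 and 63.9 CPM in G144 and 45.0 and 46.4 CPM in G164 (-0.45), and Uqcr11, a small complex III subunit shown above, at 88.7 and 95.7 CPM and 63.5 and 69.0 CPM (-0.48). Neither was called by edgeR in this comparison, and in neither did the mice overlap, as in 86 of the 93 genes and 28.8% of all genes. The most abundant gene, Atp5a1, stood at 1033 and 971 CPM in G144 and 680 and 752 CPM in G164. At -0.48 on the log2 scale, with an adjusted p of 0.0553 (edgeR), it stayed short of the threshold.

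In the homozygous comparison (G174 against G184), which addresses loss of both Abi1 alleles, the same gene group lay on the other side of 0. Of the 93 genes, 11 were higher by edgeR, against 5.44% of all genes tested, and 1, Cox8b, was lower, against 7.7%. The median log2 fold change was 0.20 (1.15-fold), against -0.00 over all genes tested, with 83 of 93 above 0. Both G174 tumors lay above both G184 tumors in 63 of the 93, where 29.9% of all genes did so. Medians by complex were 0.37 in the complex I core, 0.28 in complex III, 0.27 in complex V, 0.22 in the accessory subunits and 0.16 in the assembly factors of complex I, and 0.16 in complexes II and IV. Without tumor 6 of G174 the median fell to 0.03 in complex IV and 0.08 in the assembly factors, and without tumor 1 of G174 it was 0.27 and 0.26. In complex IV it was also 0.26 without tumor 6 of G184. DESeq2 called 24 higher, against 10.5% of all genes. Without tumor 9 of G184 edgeR called 0 higher (0.375% of all genes), without tumor 6 of G184 it called 7 (2.92%), without tumor 1 of G174 it called 6 (2.6%) and without tumor 6 of G174 it called 8 (3.52%). A fit of these mice alone called 1 (1.39%).

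Uqcrq rose most, from 32.2 and 32.4 CPM in G184 to 49.1 and 55.6 CPM in G174 (log2 fold change 0.70 ± 0.11, SE; adjusted p = 0.0115, edgeR). Its neighbour in complex III, the small subunit Uqcr10, rose by 0.53. In complex V, Atp5o (chr16:91925214-91931687), the subunit that joins the peripheral stalk to the catalytic head, rose from 44.1 and 43.2 CPM in G184 to 70.7 and 69.3 CPM in G174 (0.68 ± 0.09, SE; adjusted p = 0.0078, edgeR). Atp5o overlaps on its own strand the second Atp5o identifier mentioned above, and reads in exons of both count for neither. Atp5j, another stalk subunit, rose from 92.6 and 94.1 CPM to 143 and 137.5 CPM, and Atp5g1, 1 of the 3 genes for the c subunit of the rotor ring, from 66.5 and 56.7 CPM to 87.2 and 99.4 CPM. In complex I, Ndufv2 went from 68.8 and 60.2 CPM to 100.3 and 96.9 CPM (0.61 on the log2 scale). Ndufa11, Ndufa7 and Ndufv3 rose with it by 0.62, 0.50 and 0.50, as did Ndufaf7, an assembly factor of complex I, by 0.61. Cox7a2l rose by 0.56, from 109 and 108 CPM to 159.8 and 160 CPM. These genes were picked by their calls, so it is no further support that in each both tumors of G174 lay above both of G184. The abundant Atp5b stood at 699.7 and 638 CPM in G184 and 794 and 889.5 CPM in G174, with an adjusted p of 0.118 (edgeR).

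The genes called lower in the heterozygous comparison and higher in the homozygous one, which share no tumors, had 7 in common: Ndufv2, Ndufa7, Ndufa11, Ndufv3, Uqcrq, Cox7a2l and Atp5o. They are 7 of the 14 in the first list and 63.6% of the 11 in the second, and all 7 lie on chromosome 11, 16 or 17. Over all genes tested, 206 were called in both, 72% of those lower in the first and 17.1% of those higher in the second. Of these 206, 83 lie on chromosomes 11, 16 and 17, which hold 15.1% of all genes tested.

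**Figure D2:**
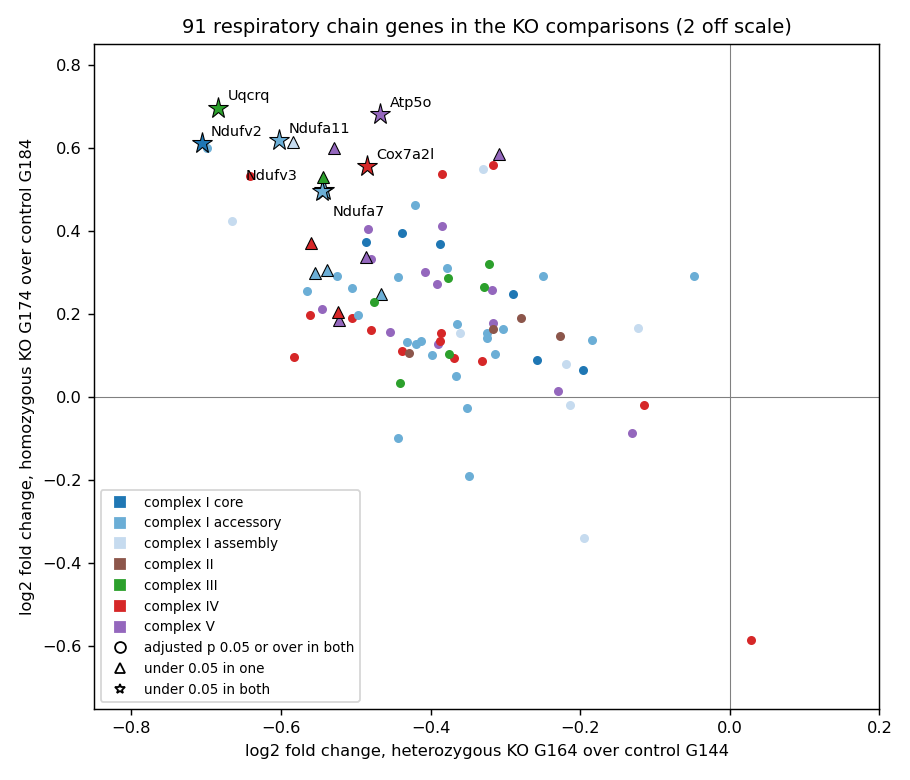
Log2 fold changes of 91 genes in the heterozygous (horizontal) and homozygous (vertical) comparison, coloured by complex, with triangles and stars for an adjusted p under 0.05 in 1 or in both; Cox8b and Cox6a2 are off the scale. Most points lie left of 0 and above 0, and the 7 stars lie in the upper left, from Uqcrq at -0.68 and 0.70 to Ndufa7 at -0.54 and 0.50.

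The difference between the comparisons (homozygous minus heterozygous log2 fold change), tested in the same fit, was above 0 for 57 of the 93 genes, against 12% of all genes. It was below 0 for none, against 13.1%, with 1 gene, Cox8b, below at an unadjusted p under 0.05 and called by DESeq2. By complex the calls were 5 of 7 core subunits, 19 of 30 accessory subunits and 3 of 8 assembly factors of complex I, 2 of 4 genes of complex II, 7 of 8 of complex III, 7 of 19 of complex IV and 14 of 17 of complex V. The median difference was 0.64. Of the genes whose promoter stretches are shown, Atp5k stood at 42.8 and 43.7 CPM in G184 and 43.8 and 52.6 CPM in G174, with a difference of 0.61 (adjusted p = 0.0307, edgeR). Uqcr11 stood at 62.5 and 63.9 CPM in G184 and 69.7 and 78.6 CPM in G174, with a difference of 0.71 (adjusted p = 0.016, edgeR). Leaving out 1 tumor left between 18 calls (without tumor 6 of G164) and 58, with 22 without tumor 9 of G184 and 25 without tumor 3 of G164. In these 4 fits 3.23%, 9.84%, 4.45% and 5.37% of all genes were called above 0.

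The mice without Cre, G184 and G144, had like levels of Abi1 (log2 fold change -0.03, adjusted p = 0.918, edgeR) and differ by label in the number of floxed alleles. Here 49 of the 93 genes were lower in G184 by edgeR, against 6.4% of all genes, and none was higher, against 6.17%, at an unadjusted p under 0.05 and by DESeq2 as well. Both G184 tumors lay below both G144 tumors in 84 of the 93, where 30.3% of all genes did so. The median log2 fold change was -0.48 (0.715-fold), larger in size than either KO comparison's. Complex V held 13 of these calls among 17 genes and complex III 6 among 8, and complex II held 0 of 4. Uqcrq (-0.90) and Ndufv2 (-0.89) again had the largest calls. Leaving out 1 tumor left 1 call without tumor 9 of G184 (0.388% of all genes), 2 without tumor 6 of G144 (0.345%), 13 without tumor 8 of G144 (2.33%) or 16 without tumor 6 of G184 (3.55%), and a fit of these mice alone called 20 (3.25%). The control and difference comparisons share tumors with both KO comparisons, so their directions are not independent: a high level in G144 enters the heterozygous, the control and the difference values alike.

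Where the called genes lie on the chromosomes was examined after the calls were known. All 11 genes called higher in the homozygous comparison lie on chromosome 11 (Uqcr10, Uqcrq, Atp5g1), 16 (Atp5j, Atp5o) or 17 (Ndufa7, Ndufa11, Ndufaf7, Ndufv2, Ndufv3, Cox7a2l). These chromosomes hold 15 of the 93 genes and 15.1% of all genes tested. Of all genes called higher in this comparison, 48.3% lie on them. The median log2 fold change of all genes of chromosome 11 with a mean of at least 2 CPM was 0.38, that of chromosome 16 was 0.35 and that of chromosome 17 was 0.32. Chromosome 8 had 0.21, chromosome 7 had -0.16, and the other chromosomes lay between -0.10 and 0.02. The respiratory chain genes stood above the median of their own chromosome. Their median was 0.55 on chromosome 11, 0.59 on 16 and 0.56 on 17, and 0.17 over the 78 genes on all other chromosomes. In the heterozygous comparison the median of all such genes was -0.24 on chromosome 17, -0.23 on 8, -0.15 on 11 and 0.00 on 16. Of the 14 respiratory chain genes called lower there, 6 lie on chromosome 17. On that chromosome 8.14% of genes with a mean of at least 2 CPM were called lower, against 1.29% of all genes. In the controls the medians were -0.24 on 17 and on 11, -0.19 on 8 and -0.05 on 16.

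The same chromosomes moved in single tumors. Relative to the mean of the 8 tumors, the median gene of chromosome 17 stood at 0.24 and 0.08 in G174, -0.13 and -0.15 in G184, -0.10 and -0.17 in G164, and 0.20 and 0.02 in G144 on the log2 scale. The median gene of chromosome 16 stood at 0.30 and 0.16 in G174 and between -0.15 and -0.01 in the other 6 tumors. Chromosome 8 stood at 0.30 in tumor 6 of G144 and -0.09 in tumor 8 of the same mouse. Cox4i1 (chr8:120668222-120674207), Ndufa13 and Ndufb7 lie on it, and were higher in tumor 6 (372, 129.7 and 96.1 CPM) than in tumor 8 (321, 113 and 65.2 CPM). Chromosome 7 went the other way, with -0.09 in tumor 6 and 0.16 in tumor 8 of G144, and Cox6b1 on it stood at 159 and 235 CPM. DNA copy number was not measured in these samples, and its part in these values was not tested.

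With the median of each chromosome taken out of each tumor before the fit, an alternative chosen after seeing the data, the group as a whole stood where it had been but the calls changed. The median log2 fold change was 0.21 in the homozygous and -0.35 in the heterozygous comparison. On chromosomes 11, 16 and 17 it became 0.23 and on the others 0.21 in the homozygous comparison. There, edgeR called 6 genes higher, against 3.97% of all genes. Atp5o was among them and among the 11 called before, while Ndufs1 and Ndufs8 of the complex I core, Ndufa10 and Atp5c1 were among those called only now. In the heterozygous comparison 9 genes were lower, against 1.06% of all genes, of which Atp5c1, Atp5o, Atp5pb and Ndufa4 had been called before. The difference was called above 0 in 60 genes (10.6% of all genes), 50 of them as before, and 57 were lower in the controls (7.05% of all genes), 44 of them as before. Called both lower in the heterozygous and higher in the homozygous comparison were then 3 genes, Atp5c1, Atp5o and Ndufa10, of which Atp5o had been among the 7. Cox8b was then called below 0 in the difference, as were 14.3% of all genes.

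**Figure D3:**
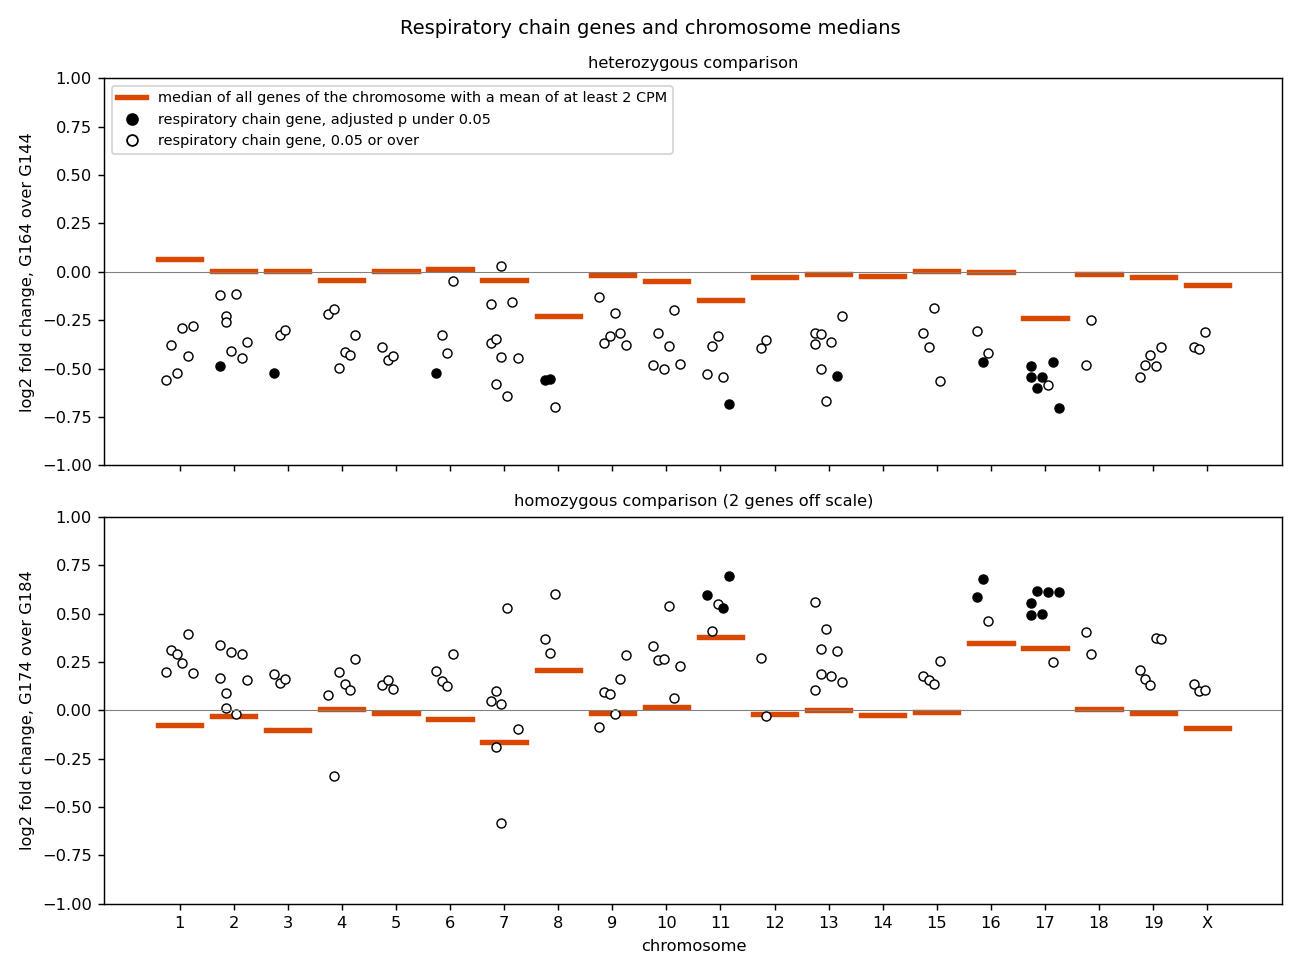
Log2 fold changes of respiratory chain genes (circles, filled for an adjusted p under 0.05) and the median of all genes with a mean of at least 2 CPM (orange bars) on each chromosome, for the heterozygous and homozygous comparison; Cox8b and Cox6a2 of chromosome 7 are off the scale in the lower panel. In the homozygous comparison the filled circles in view lie on chromosomes 11, 16 and 17, whose bars stand at 0.38, 0.35 and 0.32.

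Complex II, succinate dehydrogenase, is the complex that also serves the tricarboxylic acid cycle and is encoded by the nucleus alone. None of its 4 genes passed the threshold of edgeR in the heterozygous, homozygous or control comparison, where 2 lower, 0 and 4 lower did so at an unadjusted p under 0.05. DESeq2 called Sdhb lower in the heterozygous and control comparisons and 0 in the homozygous one. In the heterozygous comparison the log2 fold changes were -0.43 for Sdhb, the iron-sulfur subunit, -0.32 for Sdhd and -0.28 for Sdhc, the membrane anchors, and -0.23 for Sdha. In the homozygous one they lay between 0.11 and 0.19. The difference was above 0 for Sdhb (0.54 ± 0.16, SE; adjusted p = 0.0459) and Sdhd (0.48 ± 0.14, SE; adjusted p = 0.047), by edgeR. Both calls were lost in 7 of the 8 fits with 1 tumor left out: Sdhb was called only without tumor 6 of G144 and Sdhd only without tumor 1 of G174. Sdha stood at 306 and 293 CPM in G144, 237 and 275 in G164, 247.5 and 256.5 in G184, and 274 and 284 in G174, and tumors of G174 and G164 overlapped.

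Several complex IV subunits come as a common isoform and as one of muscle, brown fat, testis or lung. In these tumors the common isoform dominated. Per kilobase, the lowest share of the common isoform in any tumor was 99.5% for Cox4i1 against Cox4i2, 99.4% for Cox6a1, 99.7% for Cox6b1, 99.9% for Cox7b, 97.8% for Cox8a, and 98.1% for Ndufa4 against its hypoxia-inducible relative Ndufa4l2. Cox7a1 held up to 3.62% of its 3-gene group. Cox8b (chr7:140898945-140900446), the isoform of heart, skeletal muscle and brown fat, was the 1 gene called lower in the homozygous comparison. It stood at 1.10 and 1.32 CPM in G184 and at 0.198 and 0.105 CPM in G174, which are 13 and 7 counts, 7.89-fold lower (log2 fold change -2.98 ± 0.65, SE; adjusted p = 0.0304, edgeR). In G144 it stood at 0.625 and 2.28 CPM and in G164 at 1.28 and 1.32 CPM, so that G174 was below all other tumors. Its share of the Cox8 genes per kilobase was 1.73% ± 0.20 in G184 and 0.200% ± 0.098 in G174 (SD, n = 2). The call was lost when any tumor of G184 or G174 was left out.

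The other muscle isoforms, Cox7a1 and Cox6a2, differed from Cox8b in which tumors were high. Cox7a1 stood at 3.92 and 4.09 CPM in G144, 2.82 and 2.31 in G164, 2.71 and 2.36 in G184, and 3.84 and 3.49 in G174, in the order of the common subunits. Its difference was above 0 (1.17 on the log2 scale, adjusted p = 0.0267, edgeR). Cox6a2 stood at 0.663 CPM in tumor 8 of G144 and 0.534 CPM in tumor 3 of G164, and at most 0.155 CPM in the other 6. Those same tumors held 290.3 and 358 CPM of 12 skeletal muscle markers, against at most 14.9 CPM elsewhere, and in the others Ckm, Acta1 and Myh4 lay at or below 0.587 CPM. An alternative chosen after seeing the data left out both of those tumors, so that G144 and G164 kept 1 tumor each. The medians over the 93 genes were then -0.37 in the heterozygous, 0.20 in the homozygous and -0.43 in the control comparison. Of 5 brown fat markers, Ucp1 was between 0.046 and 0.226 CPM in all tumors. Of the 4 tested, edgeR called 1 lower and 0 higher in the homozygous comparison, against 7.7% and 5.44% of all genes. In the difference 1 was above 0 and 1 below 0, against 12% and 13.1%. In the heterozygous and control comparisons 0 were called. Adipocyte markers, 8 in number, summed to 72.0 and 43.0 CPM in G184, 28.1 and 10.9 in G174, 27.0 and 38.6 in G144, and 46.4 and 157.7 in G164, and the defining Adipoq stood at 6.12 and 3.31 CPM in G184 against 1.43 and 0.452 CPM in G174. All 8 adipocyte markers were below 0 in the homozygous comparison, with 1 called lower by edgeR, against 7.7% of all genes. In the heterozygous comparison all 8 were above 0, with 1 called higher, against 2.72% of all genes. Cox8b had log2 fold changes of -2.98 in the homozygous and -0.16 in the heterozygous comparison. The part of fat cells in the level of Cox8b was not tested. In a bulk tumor, fewer cells of a type and less RNA per cell cannot be told apart.

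**Figure D4:**
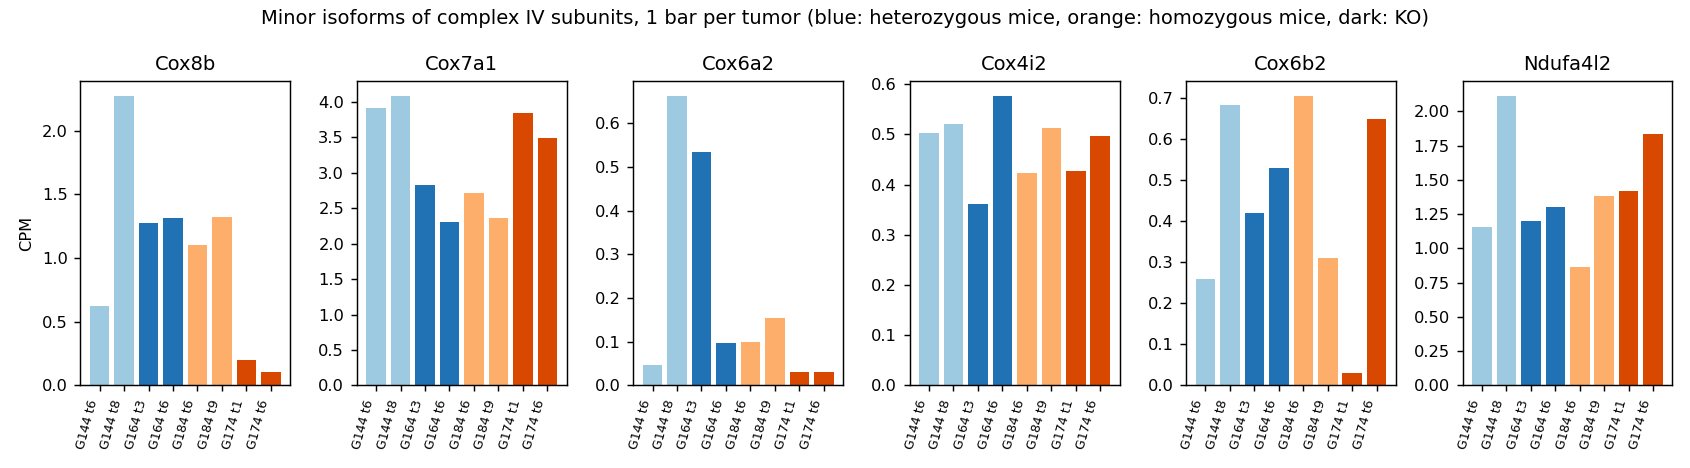
CPM of 6 minor isoforms of complex IV subunits, with 1 bar per tumor and a separate axis from 0 for each gene. Cox8b stood at 0.198 and 0.105 CPM in G174 and at 0.625 or more elsewhere, and Cox6a2 was highest in tumor 8 of G144 and tumor 3 of G164.

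The c subunit of complex V is made from 3 genes with the same mature protein. Atp5g3 held most of the per-kilobase level, 62.3% to 66.3% over the tumors. Atp5g1 held 13.8% ± 1.78 in G184 and 16.7% ± 0.25 in G174, and Atp5g2 held 21.9% ± 0.82 and 19.8% ± 1.96 (SD, n = 2). For Cox7a2l the share of its 3-gene group was 45.6% ± 0.051 in G184 and 53.3% ± 1.73 in G174, and Cox7a2 held 51.5% ± 0.21 and 43.4% ± 2.07. Cox7a2l had been called higher in these same tumors, so its larger share in G174 is no further support. Cox7a2l and Atp5g1 lie on chromosomes 17 and 11.

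Genes of the same pathways outside the name rule were counted the same way, against 1.29% of all genes lower in the heterozygous and 5.44% higher in the homozygous comparison. Of 16 further chain genes tested, such as Cyc1 and Cycs, 1 was lower in the heterozygous and 3 were higher in the homozygous comparison. Tmem242, an assembly factor, was in both (-0.67 and 0.45 on the log2 scale), and Timmdc1 (0.67) and Cyc1 (0.39), the cytochrome c1 of complex III, were the others. Of 35 assembly factors of complexes II to V, 1 was lower in the heterozygous comparison, Coa3 (-0.57). In the homozygous one Taco1 (0.62), Uqcc2 (0.60), Coa3 (0.57) and Bcs1l (0.56) were higher, and Cox20 was lower (-0.56). In the difference 11 of the 35 were above 0, against 12% of all genes. Below 0 were 2, Cox18 (-0.80) and Cox20 (-0.71), against 13.1%. Of 13 tricarboxylic acid cycle genes, Idh3a was lower in the heterozygous comparison (-0.54) and Suclg1 higher in the homozygous one (0.33). Above 0 in the difference were 10 of the 13, against 12% of all genes. Tmem242, Timmdc1, Uqcc2, Coa3 and Taco1 lie on chromosomes 11, 16 or 17, and Cyc1, Bcs1l, Suclg1, Idh3a and Cox20 do not. In the controls, 6 of the 16 further chain genes, 6 of the 35 assembly factors and 6 of the 13 cycle genes were lower, against 6.4% of all genes.

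Among 16 regulators of mitochondrial biogenesis, 1 was lower in the heterozygous and 2 were higher in the homozygous comparison. Of the factors whose cores were searched above, Nrf1 stood between 43.7 and 46.1 CPM and Yy1 between 111 and 129 CPM in the 8 tumors, and neither was called by edgeR. Gabpa, on chromosome 16, where it overlaps Atp5j on the opposite strand, was higher in G174 (139 and 124.5 CPM) than in G184 (100.2 and 99.6 CPM; 0.40 on the log2 scale, adjusted p = 0.0367, edgeR). Tfb1m, the methyltransferase of mitochondrial ribosomal RNA, on chromosome 17, was called in both, at -0.80 in the heterozygous and 0.64 in the homozygous comparison. Ppargc1a, the PGC-1alpha coactivator, stood at 3.21 to 8.11 CPM and was not called by edgeR. Its relative Ppargc1b stood at 2.15 and 2.42 CPM in G144, 3.14 and 4.38 in G164, 3.92 and 3.31 in G184, and 2.59 and 2.27 in G174, and its difference was below 0 (-1.29, adjusted p = 0.0322, edgeR). Of 10 mitochondrially encoded transcripts tested, mt-Co1, a catalytic subunit of complex IV, was called higher in the homozygous comparison. It stood at 4477 and 4066 CPM in G184 and 5983 and 6438 in G174 (0.54, adjusted p = 0.0388, edgeR), with 6604 and 6077 in G144 and 4703 and 4449 in G164 (-0.47, adjusted p = 0.0863, edgeR). Of 9 hypoxia genes tested, Egln3 was lower in the heterozygous comparison (-1.18) and Egln3 (1.17) and Car9 (1.34) were higher in the homozygous one.

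Other measures also differed between tumors, and not all of them followed the level of the respiratory chain genes across the mice. The 8 leukocyte markers summed to 157 and 186 CPM in G144, 358 and 379 in G164, 390 and 485 in G184, and 162.5 and 162 in G174, and Ptprc, which marks all leukocytes, was called in all comparisons. Of these markers, 5 of 8 were higher in the heterozygous comparison, against 2.72% of all genes. In the homozygous comparison 6 of 8 were lower, against 7.7%. The 8 mitosis genes summed to 1150 and 1393 CPM in G144, 739 and 670.5 in G164, 707 and 353 in G184, and 750 and 967 in G174. Their median log2 fold change was -0.94 in the heterozygous and 0.87 in the homozygous comparison. Of the 8, edgeR called 0 in either, with 6 lower and 6 higher at an unadjusted p under 0.05. DESeq2 called the same numbers, against 7.65% of all genes lower and 10.5% higher. By edgeR, 6 of 8 were above 0 in the difference (12% of all genes) and 6 of 8 lower in the controls (6.4%). Endothelial markers, 5 in number, lay between 93.6 and 151 CPM and 8 markers of mural cells between 220.2 and 343.8 CPM in all tumors. Fibroblast markers, 6 in number, summed to 1319 and 1452 CPM in G144, 2955 and 2636 in G164, 1901 and 1475 in G184, and 1975 and 1010 in G174. Reads in no gene, a sign of intronic or unannotated RNA, made up 28.3% and 28.7% in G144, 34.95% and 33.1% in G164, 34.4% and 32.2% in G184, and 32.3% and 29.8% in G174. Reads that mapped to several places, which are not counted and to which genes with near-identical pseudogene copies are prone, made up 12.8% and 14.2% in G144 and 10.5% to 11.3% in the others. Of the 8 epithelial markers listed above, 1 was lower in the heterozygous comparison, against 1.29% of all genes. In the homozygous comparison 2 were higher, against 5.44%, and in the controls 1 was lower, against 6.4%. The part of epithelial cells, leukocytes, dividing cells, fibroblasts, RNA makeup and shared reads in the results was not tested.

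**Figure D5:**
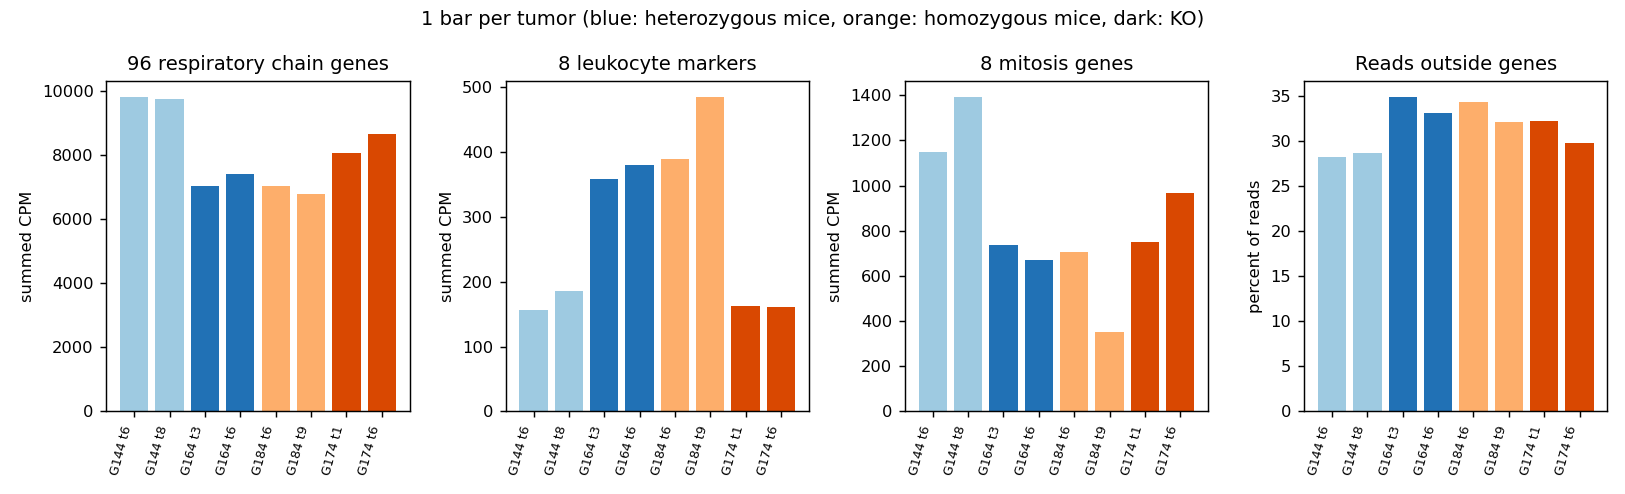
Summed CPM of the 96 respiratory chain genes, of 8 leukocyte markers and of 8 mitosis genes, and the percent of reads in no gene, with 1 bar per tumor. Leukocyte markers reach 186 CPM at most in the tumors of G144 and G174, and lie between 358 and 485 in those of G164 and G184, where the respiratory chain sums are lowest.

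Tumors of 1 mouse were also compared with each other. The median log2 ratio over the 93 genes was 0.00 between the tumors of G144, 0.05 between those of G164, -0.02 between those of G184 and 0.13 between those of G174, where tumor 6 was above tumor 1 in 75 of 93 genes.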

How the data were processed

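The 64 deposited files hold raw counts per gene for each of 4 lanes in 2 runs of 8 tumors. Per the labels and the study's methods, the libraries were stranded total RNA without ribosomal RNA, and STAR, run by the authors against GRCm38/mm10, gave both alignments and counts (version, annotation release: not given in the sources used here). Sums per mouse that the authors deposited equal the unstranded counts at all 55381 genes and gave gene names and types. Here the reverse-strand counts were summed per tumor, filtered with filterByExpr (22187 genes kept), TMM-scaled and given to the quasi-likelihood fit of edgeR 4.0.16 with the 8 tumors together, in R 4.3.3, checked on simulated data. The standard error is the log2 fold change over the root of F. Exon lengths and places come from GENCODE M21. Tables were made in Python 3.11.15.

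The genes, lists and tests were chosen with earlier results of these data known. Named are, per comparison and complex, up to 4 genes past the threshold with the largest change, the most abundant per kilobase, all of complex II and the isoform groups, and up to 3 called genes of each other list. Genes named beyond this rule (Ndufaf2, Atp5b, Atp5k, Uqcr11, the chromosome 7 and 8 genes, markers and regulators) were chosen after their values were seen. Alternatives were RLE scaling, library size alone, no filter, unstranded counts, single runs, DESeq2 1.42.0, the mice compared alone, each tumor left out, removal of a length trend, and, chosen after seeing the data, chromosome-centred counts and both tumors with muscle markers left out. Values of some single genes are left out of the text.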

Additional observations from a re-analysis of the deposited data

Results flagged for a closer look

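The homozygous and heterozygous comparisons differed, by the test of the difference itself in edgeR, for 57 of the 93 respiratory chain genes tested. All 57 had a higher log2 fold change in the homozygous comparison. Of all genes tested, 12% were called above 0 and 13.1% below 0 in the difference. The count depended on the setting, as given below. Among the genes called in both comparisons, in opposite directions, the difference in log2 fold change was 1.38 for Uqcrq, 1.32 for Ndufv2, 1.22 for Ndufa11, 1.15 for Atp5o and 1.04 for Ndufa7, Ndufv3 and Cox7a2l each. In each of these 7 genes both G164 tumors were below both G144 tumors and both G174 tumors above both G184 tumors. Of all genes tested, 28.8% did the first and 29.9% the second. The 7 were picked by their calls in both comparisons, so their lack of overlap is no further support. The difference takes in all 4 mice, and the control mice alone differed in 49 of the genes, all lower in G184, against 6.4% of all genes.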

How the results depend on the processing

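The direction of the median over all respiratory chain genes was kept in each comparison under every alternative run, and with RLE scaling the called genes in the KO comparisons were the same 14, 11 and 1. No paired analysis was possible because any 2 mice share only tumor number 6. Counts of calls depended more on the setting. Genes lower in the heterozygous comparison numbered 6 with library size alone (0.667% of all genes), 30 without the filter (2.34%), 9 with unstranded counts (1.09%), 7 with the first run alone (0.98%), 54 with DESeq2 (7.65%), 9 with chromosome-centred counts (1.06%) and 0 without both tumors with muscle markers, where 0 of 22840 genes were called lower. Genes higher in the homozygous comparison numbered 24 with DESeq2 (10.5%), 1 with the mice compared alone (1.39%), 6 with chromosome-centred counts (3.97%) and 1 without both tumors with muscle markers (0.985%). Genes above 0 in the difference numbered 42 with library size alone (8.54% of all genes), 49 without the filter (7.25%) and 65 with DESeq2 (14.7%). That count fell as well without both tumors with muscle markers. In the difference, 1 gene was below 0 with library size alone (14.6% of all genes), without the filter (9.23%) and with the first run alone (12.7%). The same count was found with DESeq2 (14.5%) and with chromosome-centred counts (14.3%). Genes lower in the controls numbered 20 with the mice compared alone (3.25%) and 0 without both tumors with muscle markers (0.136%).

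Leaving out 1 tumor in turn gave 0 to 0 lower in the heterozygous comparison, 0 to 8 higher and 0 to 0 lower in the homozygous one, 18 to 58 above and 0 to 1 below 0 in the difference, and 1 to 16 lower in the controls. Medians ran from -0.42 to -0.29 for the complex I core in the heterozygous comparison. In the homozygous comparison they ran from 0.28 to 0.37 for the complex I core, 0.24 to 0.38 for complex V, 0.03 to 0.27 for complex IV, 0.08 to 0.26 for the assembly factors and 0.15 to 0.30 for all genes, and in the difference from 0.54 to 0.69 for the accessory subunits of complex I.

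With a trend of fold change on exon length removed, the medians grew in size. In the heterozygous comparison they were -0.52 (complex I core), -0.64 (accessory), -0.44 (assembly), -0.45 (II), -0.60 (III), -0.63 (IV), -0.57 (V) and -0.57 (all genes). In the homozygous comparison they were 0.47 (core), 0.31 (accessory), 0.38 (III), 0.37 (V) and 0.30 (all genes). In the difference they were 1.01 (core), 0.88 (accessory), 0.66 (assembly), 0.74 (II), 0.90 (III), 0.98 (IV), 0.96 (V) and 0.91 (all genes). With chromosome-centred counts the median of accessory subunits was -0.33 in the heterozygous comparison.

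The summed level in G144 was 9638 CPM with library size alone, 9652 with unstranded counts, 9717 with the first run and 9719 with the second, and that in G184 was 6728 with unstranded counts. From raw counts without length, Cox8b held 1.01% in G184, Cox7a2l 57.3% in G184 and 64.8% in G174, and Atp5g1 27.7% in G184 and 32.4% in G174. The causes of these changes were not tested.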
